A study of Mus musculus with 36 samples.

Results

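Transcripts of 8 Toll-like receptors (Tlr1, Tlr2, Tlr3, Tlr4, Tlr6, Tlr7, Tlr9 and Tlr13), of the co-receptor Cd14 and of the adaptor Myd88 were followed through mouse hippocampus and through RNA pulled down from Cx3cr1-tagged cells. The 10 genes were taken by symbol from a table of 36172 gene entries, and each matched 1 entry. All animals carried Cx3cr1-cre together with NuTRAP, a reporter that puts a fluorescent tag on ribosomes once cre has acted. Cre was activated with tamoxifen, either early or late in life. Because the promoter of Cx3cr1 drives cre, the tag is expected in microglia and in other Cx3cr1-positive macrophages. Whole-tissue RNA, called input, came from 10 young animals (6 months, early induction, 5 females and 5 males), 12 old animals with early induction (22 months, 7 females and 5 males) and 7 old animals with late induction (22 months, 5 females and 2 males). Ribosome-bound RNA was pulled down with an antibody against the tag (translating ribosome affinity purification, TRAP) from the same 7 old late-induced animals. Pulldowns from animals with early induction were not analysed here, so changes with age rest on input alone.

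Toll-like receptors are sensors of microbial and damage-derived molecules. Tlr1, Tlr2, Tlr4 and Tlr6 act at the cell surface, where Tlr2 pairs with Tlr1 or Tlr6 to bind lipopeptides and Tlr4 binds lipopolysaccharide with the help of Cd14. Tlr3, Tlr7, Tlr9 and Tlr13 act in endosomes, where they bind double-stranded RNA, single-stranded RNA, unmethylated CpG DNA and bacterial ribosomal RNA. All of these receptors but Tlr3 signal through Myd88, and Tlr3 signals through Ticam1. In brain, microglia and border macrophages are the best known cells that express these receptors, and Tlr3 is also known from astrocytes and neurons.

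The deposited table places the members on mm10 as whole protein-coding genes. Of the surface receptors, Tlr1 (gene 21897) at chr5:64924680-64932699 on the minus strand, Tlr6 (gene 21899) at chr5:64953095-64960034 on the minus strand, Tlr2 (gene 24088) at chr3:83836272-83841608 on the minus strand and Tlr4 (gene 21898) at chr4:66827811-66842796 on the plus strand were listed. The endosomal receptors stood with Tlr3 (gene 142980) at chr8:45395665-45410539 on the minus strand, Tlr7 (gene 170743) at chrX:167304931-167330528 on the minus strand, Tlr9 (gene 81897) at chr9:106222598-106226876 on the plus strand and Tlr13 (gene 279572) at chrX:106143275-106160493 on the plus strand. The table gave Myd88 (gene 17874) at chr9:119335988-119340040 on the minus strand. Cd14 is gene 12475 there, and its position is not printed.

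The stretches of 250 bases before the start in the RefSeq promoter table are shown for 4 members. Tlr2 was taken for the largest change with age, and Tlr3 and Myd88 for the smallest enrichment in TRAP. Tlr9 serves as an endosomal receptor with a high enrichment. Tlr13 had a larger enrichment than Tlr9 and also has a stretch in the promoter table, which is not shown. Gene models differ in their starts, so that 159 bases of the Tlr3 stretch and 22 of the Myd88 stretch lie inside the gene as the deposited table gives it. In GENCODE all 250 bases of both, and 159 bases of the Tlr2 stretch, lie inside the gene. The stretches are from RefSeq on GRCm38.p6, in the direction of the gene, and stand at chr3:83841609-83841858 on the minus strand (Tlr2), chr8:45410381-45410630 on the minus strand (Tlr3), chr9:106222348-106222597 on the plus strand (Tlr9) and chr9:119340019-119340268 on the minus strand (Myd88). Capitals mark matches to 5 motifs searched on both strands, namely PU.1 (GAGGAAGT), AP-1 (TGANTCA), NF-kB (GGGA, any base, TTTCC), ISRE (GAAA, any 2 bases, GAAA) and the TATA box (TATAAA).
Tlr2: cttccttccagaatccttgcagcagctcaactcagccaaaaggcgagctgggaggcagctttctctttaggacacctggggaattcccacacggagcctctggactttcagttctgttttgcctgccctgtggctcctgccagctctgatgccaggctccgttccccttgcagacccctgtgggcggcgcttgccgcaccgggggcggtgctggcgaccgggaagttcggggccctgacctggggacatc
Tlr3: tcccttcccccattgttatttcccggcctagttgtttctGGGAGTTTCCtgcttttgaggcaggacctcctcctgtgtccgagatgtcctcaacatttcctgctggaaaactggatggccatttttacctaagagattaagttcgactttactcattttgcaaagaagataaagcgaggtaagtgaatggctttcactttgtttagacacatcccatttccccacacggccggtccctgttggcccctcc
Tlr9: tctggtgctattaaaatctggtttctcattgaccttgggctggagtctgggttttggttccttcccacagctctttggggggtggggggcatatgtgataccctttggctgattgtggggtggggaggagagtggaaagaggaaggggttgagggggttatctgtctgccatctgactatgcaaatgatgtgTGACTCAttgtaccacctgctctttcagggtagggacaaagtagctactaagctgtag
Myd88: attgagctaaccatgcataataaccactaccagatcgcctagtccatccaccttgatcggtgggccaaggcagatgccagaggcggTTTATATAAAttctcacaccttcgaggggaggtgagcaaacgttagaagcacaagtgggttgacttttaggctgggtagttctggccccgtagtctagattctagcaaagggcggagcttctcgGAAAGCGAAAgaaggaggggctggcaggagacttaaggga

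The Tlr3 stretch held 1 NF-kB match starting at position -211 from the start, and 0.356% of 32851 promoters of this length held such a match. The Tlr9 stretch held 1 AP-1 match at position -58 (6.75% of promoters). Myd88 held 1 ISRE match at position -40 (2.98% of promoters) and a TATA box letter match on each strand, at -164 and -160, which overlap (12.4% of promoters). None of the 5 motifs was found in the Tlr2 stretch in the spelling searched. Each motif was searched in 1 spelling only, so other forms of these sites may be present in any stretch. The promoter table held 7 of the 10 members. Among those not shown, 1 of the 2 Tlr1 stretches had a PU.1 match (2.44% of promoters), the 2 Tlr6 stretches had ISRE or TATA box matches, and Tlr13 had none. These matches describe letters only and do not show that a factor binds.

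The 36 libraries held between 12.9 and 20.4 M estimated counts each. Levels are given as CPM, counts scaled to a common library total (TMM). All 12 genes of a list of homeostatic microglia markers were detected in every group, with a summed level of 364 to 613 CPM in the inputs and 8532 to 12323 CPM in TRAP. All 8 border macrophage markers were higher in TRAP too, and their sum went from 23.5 to 54.7 CPM in the matched inputs to 395 to 667 CPM, so TRAP values cannot be assigned to microglia alone. Called lower in TRAP were 10 of 10 oligodendrocyte, 10 of 10 astrocyte and 6 of 6 oligodendrocyte precursor markers, 6 of 10 of neurons, 4 of 7 of mural cells, 6 of 7 of choroid plexus, 3 of 3 of blood and 2 of 2 of neutrophils. Called higher were 9 of 10 endothelial and 3 of 3 monocyte markers, and the 1 lymphocyte marker tested was not called. The library numbers in the labels run in 1 block per input group, and whether they mark processing batches is not stated, so such a block and the group cannot be told apart.

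All 10 genes were called higher in TRAP than in the input of the same 7 animals, against 30.1% of the 15026 genes tested. The fit behind these calls and the values below included sex but did not pair the libraries of an animal. With the animal as a block, all 10 were called as well. With 58.4% of genes called in either direction, the counts say less here than the sizes, which ranged from 1.12 to 4.23 on the log2 scale with a median of 3.91. The 12 homeostatic microglia genes had a median of 4.28, and all genes tested had a median of -0.02. Ranges of TRAP and input did not overlap for any of the 10 genes. The share of all genes without such overlap was not counted, so this is a description only.

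Among the surface receptors, Tlr2 had the highest level. Its inputs held 1.74, 4.59 and 7.76 CPM (lowest, median and highest of 7) and its TRAP libraries held 36.6, 66.1 and 134 CPM. The log2 fold change of Tlr2 was 4.08 ± 0.27 (SE), a 16.96-fold difference (edgeR quasi-likelihood test, Benjamini-Hochberg adjusted p 1.2e-09). Tlr1, which forms a dimer with Tlr2, went from 0.23, 0.744 and 1.31 CPM in input to 7.37, 11.4 and 17.7 CPM in TRAP, a log2 fold change of 3.98 ± 0.27. Tlr4 held 0.78, 1.495 and 2.15 CPM in input and 16.3, 18.8 and 25.5 CPM in TRAP. The lowest TRAP value of this lipopolysaccharide receptor was thus far above its highest input, and its log2 fold change was 3.63 ± 0.15 (edgeR adjusted p 1.45e-12). Tlr6, the other partner of Tlr2, was the least abundant member, with 5 to 11 estimated counts per input library and 43 to 131 per TRAP library. Its log2 fold change was 3.58 ± 0.18 (edgeR adjusted p 2.95e-11). Tlr1 and Tlr6 are similar neighbours on chromosome 5 and the deposited counts were fractional, so reads may have been shared between them and both values are uncertain.

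Of the endosomal receptors, Tlr7, Tlr9 and Tlr13 had an enrichment near that of the microglia list and Tlr3 one far below it. Tlr13, the sensor of bacterial ribosomal RNA, had the largest fold change of the 10 genes. It rose from 1.86, 3.68 and 5.00 CPM (lowest, median and highest input) to 44.2, 65.1 and 91.6 CPM in TRAP, a log2 fold change of 4.23 ± 0.13 or 18.8-fold (edgeR adjusted p 2.43e-14). Tlr7 held 4.59, 5.12 and 8.20 CPM in input and 48.1, 89.3 and 128 CPM in TRAP (3.88 ± 0.15), and Tlr9 held 0.992, 1.55 and 3.75 CPM in input and 20.4, 26.5 and 40.7 CPM in TRAP (3.95 ± 0.21). Tlr3 differed from these. It had the highest CPM of the members in the matched inputs, at 10.2, 13.02 and 16.6 CPM, and reached only 24.4, 29.7 and 35.1 CPM in TRAP. Its log2 fold change of 1.12 ± 0.08 was a 2.18-fold difference (edgeR adjusted p 5.42e-09). Tlr3 overlaps the gene Gm19634 on the opposite strand and the strand handling of the counts is not given in the sources used here, so reads of that gene could be part of its counts.

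Cd14, which hands lipopolysaccharide to Tlr4, was abundant in TRAP. Its inputs held 3.84, 5.37 and 8.40 CPM and its TRAP libraries held 57.5, 88.0 and 141 CPM, a log2 fold change of 4.01 ± 0.17 (edgeR adjusted p 2.4e-12). Myd88, the shared adaptor, held 7.21, 7.75 and 8.77 CPM in input and 32.3, 37.2 and 51.6 CPM in TRAP. Its log2 fold change of 2.26 ± 0.10 was a 4.77-fold difference (edgeR adjusted p 7.4e-12), between that of Tlr3 and those of the other receptors.

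**Figure D1:**
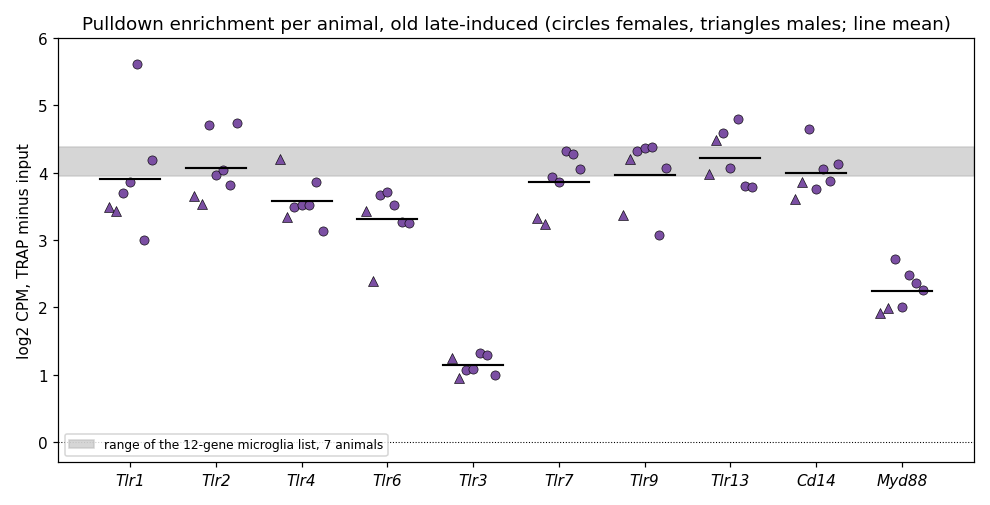
Difference of log2 CPM between TRAP and input of the same animal (y axis) for each of the 10 genes, in 7 old late-induced animals (circles females, triangles males, line at the mean). The grey band is the range of the 12-gene microglia list over the same animals, 3.95 to 4.39, and Tlr3 and Myd88 lie below it in all 7 animals.

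Within each animal, the enrichment of a gene was set against the mean enrichment of the 12 microglia genes, which was 4.14 ± 0.15 on the log2 scale (SD, n = 7), or 15.4-fold to 20.9-fold. The difference from this list was -2.999 ± 0.25 (SD) for Tlr3 and -1.90 ± 0.24 for Myd88, below it in 7 of 7 animals each. Most genes tested were enriched less than either, as the edgeR log2 fold change stood at percentile 90.4 for Tlr3 and 95.1 for Myd88. Tlr6 was also below the list in 7 of 7 animals, with a difference of -0.82 ± 0.45. The prior count of 2 in log2 CPM raises low inputs such as those of Tlr6 (5 to 11 counts), which enlarges this difference. By edgeR, the log2 fold change of Tlr6 was 3.58 and the list had a median of 4.28. The other 7 genes were on average within 0.56 of the list, Tlr4 below it in 6 animals and Tlr13 in 4. The enrichment of Tlr3 ranged from 1.95-fold to 2.50-fold between animals and that of Myd88 from 3.77-fold to 6.56-fold, so the 2 ranges did not overlap. The pulldown selects both cells and ribosome-bound RNA, and these cannot be told apart in such a ratio.

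The order of the genes, compared per kilobase of annotated exon, differed between input and TRAP. In the young inputs Myd88 led with 2.76 ± 0.20 CPM per kilobase (SD, n = 10), followed by Tlr3 (2.06 ± 0.24), Cd14 (1.60 ± 0.56) and Tlr7 (0.954 ± 0.244). Myd88 was above Tlr3 in 9 of 10 of these libraries and Tlr3 above Cd14 in 8 of 10. Tlr13 and Tlr2 came next, and Tlr2 (0.415 ± 0.215) and Tlr9 (0.407 ± 0.107) could not be separated, with Tlr2 above in 5 of 10 libraries. Tlr4, Tlr1 and Tlr6 had the lowest levels, 0.202, 0.133 and 0.0689 CPM per kilobase. In the old late-induced inputs Cd14 (3.33 ± 0.90, n = 7) stood beside Myd88 (3.06 ± 0.20) and was above it in 4 of 7 libraries. In TRAP the order began with Cd14 (55.04 ± 19.03) in 7 of 7 libraries, then Tlr2 (25.5 ± 13.5), Tlr7 (20.8 ± 7.0), Tlr13 (15.3 ± 4.1) and Myd88 (14.8 ± 2.6). Tlr13 and Myd88 were not separated, with Tlr13 above in 4 of 7. Tlr9 (8.29 ± 2.14) and Tlr3 (5.57 ± 0.68) followed, and Tlr3, second in the young inputs, was seventh in TRAP.

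Age was examined in the inputs, first at the same early induction. Tlr2, Cd14 and Tlr3 were higher in old than in young hippocampus, 3 of the 9 members tested (against 13.1% of all 15106 genes called higher and 25.5% called in either direction), and no member was lower. Tlr6 was not tested because its counts, 0 to 11 per input library, did not pass the filter on low counts. The median log2 fold change was 0.31 over the 9 members, 0.29 over the 12 microglia genes and 0.01 over all genes tested. In such tissue RNA, more cells of a type and more RNA per cell cannot be told apart.

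Tlr2 had the largest change. Young inputs held 0.615, 1.08 and 2.69 CPM (lowest, median and highest of 10) and old early-induced inputs held 1.76, 2.96 and 4.04 CPM (12 libraries). The ranges overlapped, with 7 of the 12 old libraries above the highest young library and 8 of the 10 young libraries below the lowest old one. The log2 fold change of Tlr2 was 1.16 ± 0.22 (SE), a 2.24-fold difference (edgeR adjusted p 0.000276). Its counts were low, from 8 to 46 per young library, which limits the precision of each value.

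Cd14 held 1.37, 2.71 and 4.30 CPM in young and 3.04, 3.95 and 6.197 CPM in old early-induced inputs. Of the old libraries 5 of 12 exceeded the highest young one, and the log2 fold change of Cd14 was 0.55 ± 0.17 (1.46-fold, edgeR adjusted p 0.0169). Tlr3 held 8.97, 10.96 and 13.2 CPM in young and 9.95, 13.5 and 16.0 CPM in old early-induced inputs, with 8 of 12 old libraries above every young one. This was a small change, a log2 fold change of 0.31 ± 0.09 or 1.24-fold (edgeR adjusted p 0.0076).

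The 6 other members tested did not pass. Myd88 averaged 7.12 ± 0.51 CPM in young and 7.82 ± 0.89 CPM in old early-induced inputs (SD, n = 10 and 12), a log2 fold change of 0.14 ± 0.07 (edgeR adjusted p 0.109). Tlr7 (0.03 ± 0.15) and Tlr13 (0.05 ± 0.14) had the smallest differences. Tlr4 was at 0.24 ± 0.22 and Tlr9 at 0.35 ± 0.19. Tlr1 had the second largest estimate, 0.71 ± 0.35 (edgeR adjusted p 0.138), and passed in limma voom (0.94, adjusted p 0.0461). A single young library weighed on it. Young replicate 10 held 1.38 CPM of Tlr1 against a median of 0.239 CPM in its group, and without it the log2 fold change was 1.06 with an edgeR adjusted p of 0.0173. Without it the corresponding value in old late-induced inputs was 1.09 (edgeR adjusted p 0.0193).

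**Figure D2:**
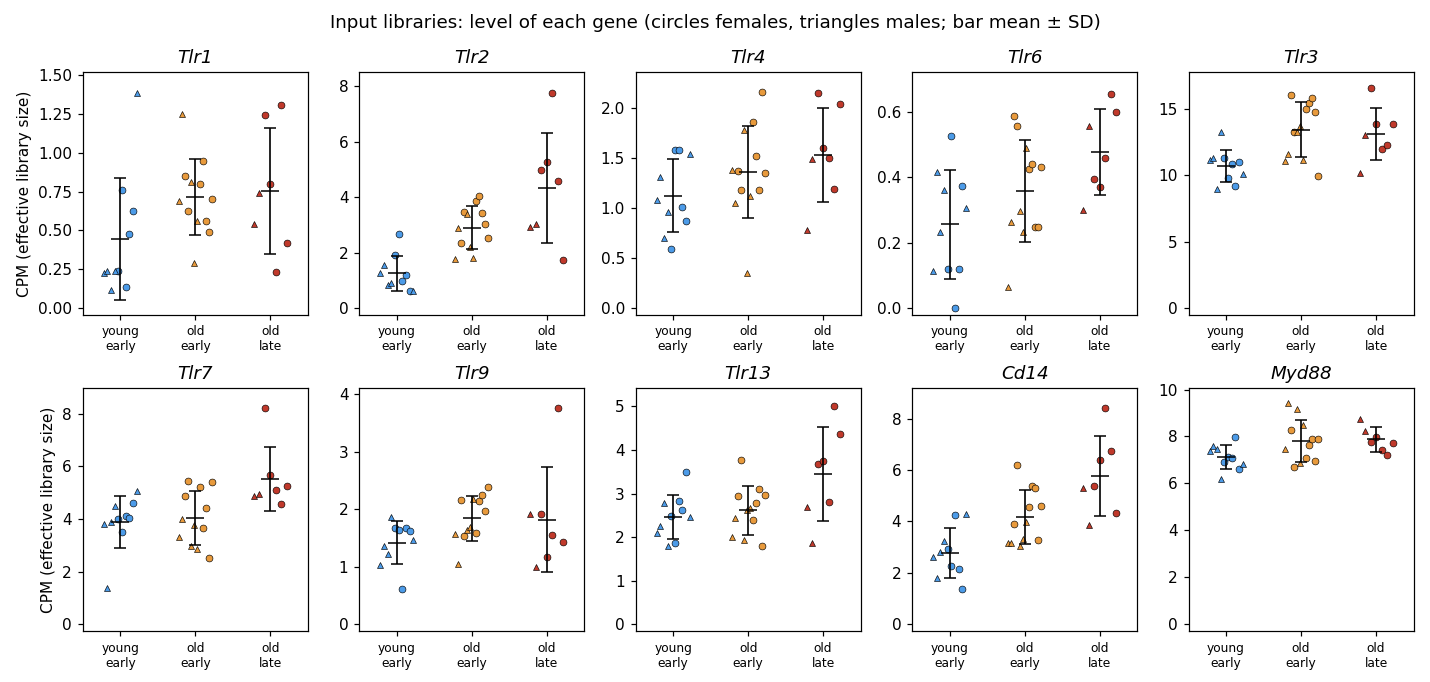
CPM (y axes, linear) of the 10 genes in young early-induced (10), old early-induced (12) and old late-induced (7) inputs, with females as circles, males as triangles and bars for mean ± SD. Tlr2 and Cd14 shift upward from young to old, and single libraries stand apart for Tlr1 and Tlr7 in young and for Tlr7 and Tlr9 in old late-induced inputs.

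Old late-induced inputs were compared with the same young inputs, and the age of induction differs here together with age. Of the 9 members tested 4 were higher (against 17.6% of all genes called higher and 34.5% called in either direction) and none was lower. Tlr2 held 1.74, 4.59 and 7.76 CPM in the old late-induced group, and 6 of its 7 libraries were above the highest young one. The library below was replicate 7. The log2 fold change of Tlr2 was 1.66 ± 0.25, a 3.16-fold difference (edgeR adjusted p 6.82e-06). Cd14 held 3.84, 5.37 and 8.40 CPM, with 6 of 7 libraries above every young one, and its log2 fold change was 0.99 ± 0.19 or 1.99-fold (edgeR adjusted p 0.000188).

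The calls of Tlr3 and Tlr7 were close to the threshold. Tlr3 averaged 13.1 ± 1.98 CPM (SD, n = 7) against 10.7 ± 1.24 CPM in young, a log2 fold change of 0.26 ± 0.10 (edgeR adjusted p 0.0392), and it lost the call when any 1 of 10 libraries was left out (adjusted p up to 0.118). Tlr7 averaged 5.52 ± 1.23 CPM against 3.89 ± 1.00 CPM, a log2 fold change of 0.45 ± 0.17 (edgeR adjusted p 0.0427). It too lost the call without any 1 of 10 libraries, among them old late-induced replicate 3, its highest at 8.20 CPM (0.34, adjusted p 0.128), and young replicate 2, its lowest at 1.37 CPM (0.35, adjusted p 0.0606). Tlr13 stood just outside, at 0.39 ± 0.16 (edgeR adjusted p 0.0506), and passed when any 1 of 8 libraries was left out and under 5 of 11 other settings. Myd88 was at 0.16 ± 0.08, Tlr4 at 0.37 ± 0.25, Tlr9 at 0.30 ± 0.22 and Tlr1 at 0.77 ± 0.40, none of which passed. Without old late-induced replicate 6, its highest library, Tlr9 was at 0.04 ± 0.20 (edgeR adjusted p 0.906).

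**Figure D3:**
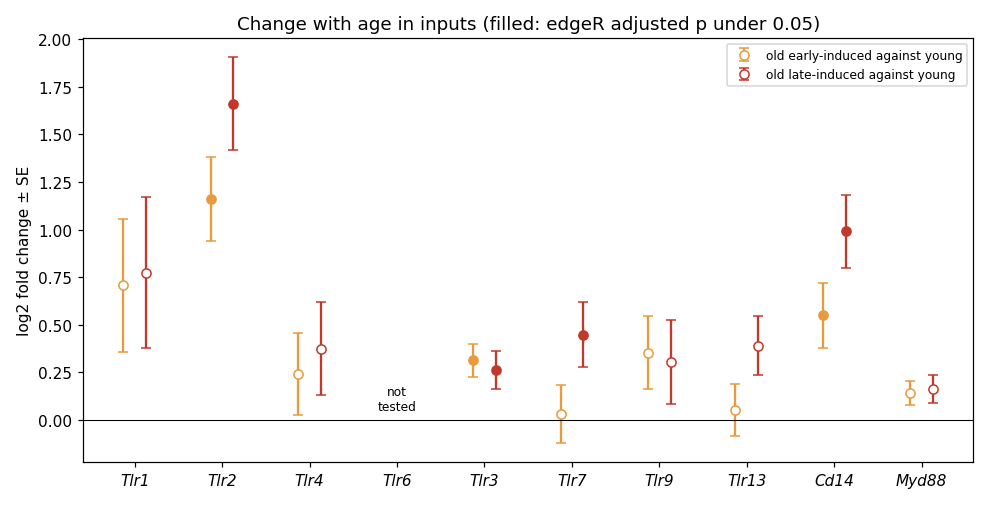
Log2 fold change ± SE (y axis) of each gene in old early-induced (orange) and old late-induced (red) inputs against the same young inputs, with filled symbols where the edgeR adjusted p was under 0.05. Tlr2 and Cd14 have the largest called changes in both comparisons, which share their young libraries, and Tlr6 was not tested there.

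Homeostatic microglia markers moved with age as well. Their mean log2 CPM was 4.41 ± 0.06 (SD) in the 10 young inputs, 4.73 ± 0.08 in the 12 old inputs with early induction and 4.86 ± 0.13 in the 7 with late induction, and both old groups lay above the young group without overlap. Of the 12 markers, 10 were called higher in the old early-induced and 12 in the old late-induced inputs. Each member was therefore also expressed relative to this list within a library. The log2 level of Tlr2 minus the list mean averaged -4.08 ± 0.65 (SD) in young inputs, -3.18 ± 0.36 after early induction and -2.83 ± 0.59 after late induction. For Cd14 it was -2.95 ± 0.50, -2.67 ± 0.33 and -2.34 ± 0.28. Both genes thus averaged higher relative to the markers in old tissue, with overlapping ranges. Tlr3 averaged -0.98 ± 0.14, -0.99 ± 0.18 and -1.14 ± 0.25, about the same distance from the markers at both ages. Myd88 averaged -1.56 ± 0.16, -1.75 ± 0.18 and -1.86 ± 0.19, further below the markers in old tissue. Tlr1 and Tlr6, which had low counts, also averaged higher in both old groups. Their differences from young inputs after early and late induction were 0.43 and 0.29 (Tlr1) and 0.09 and 0.33 (Tlr6). The differences were -0.09 and -0.03 for Tlr4, -0.24 and -0.02 for Tlr13, -0.24 and 0.08 for Tlr7 and 0.06 and -0.17 for Tlr9.

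With the microglia list mean as a covariate none of the members was called in either age comparison. The same fit also left 38 calls over all genes in the old early-induced and 8 in the old late-induced comparison, and the list mean itself did not overlap between young and old. The log2 fold change of Tlr2 was then 0.85 ± 0.44 (edgeR adjusted p 0.469) and 1.21 ± 0.60 (0.398), and that of Cd14 was 0.09 ± 0.31 and 0.33 ± 0.42. Across the 29 inputs, after group and sex were taken out, Tlr9 followed the list mean most closely (Pearson r 0.53), and r was 0.12 for Tlr2, 0.27 for Cd14 and 0.28 for Tlr3. These correlations are descriptions over libraries that share a scaling.

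**Figure D4:**
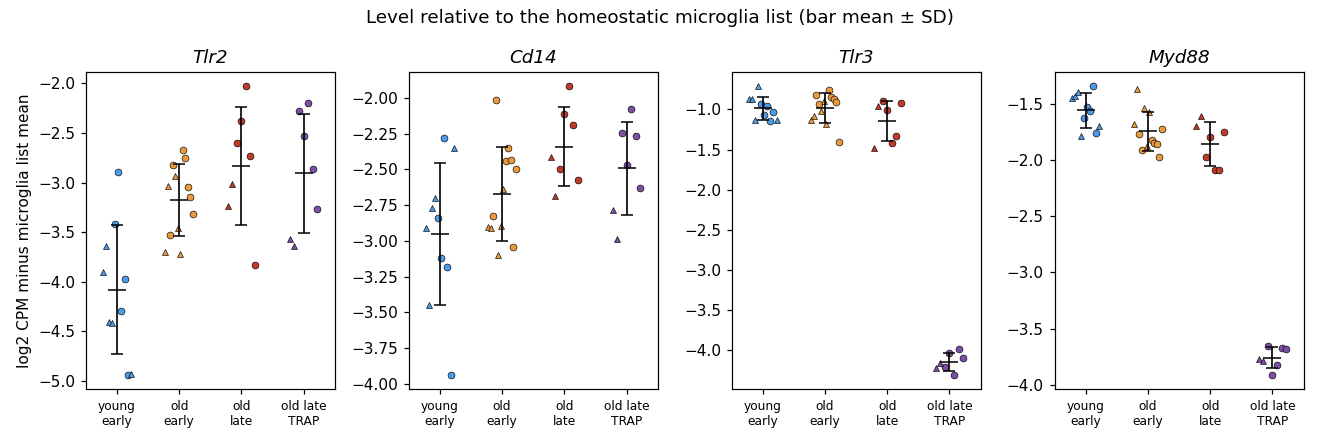
Log2 CPM of Tlr2, Cd14, Tlr3 and Myd88 minus the mean log2 CPM of 12 homeostatic microglia genes in the same library (y axes), for 3 groups of inputs and the 7 TRAP libraries, with females as circles, males as triangles and bars for mean ± SD. Tlr2 and Cd14 have similar ratios in old late-induced input and TRAP, while those of Tlr3 and Myd88 are lower in TRAP without overlap.

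In TRAP the ratio of Tlr2 to the list was -2.91 ± 0.60 and that of Cd14 -2.49 ± 0.33 (SD, n = 7), close to their values in the matched inputs (differences of -0.07 and -0.15). The ratio of Tlr3 was -4.14 ± 0.11 and that of Myd88 -3.76 ± 0.09, and neither range overlapped that of its inputs. Most genes tested were enriched less in TRAP than these 2, so a lower ratio is not particular to them. Markers of other cells also changed with age in the inputs. Oligodendrocyte markers were higher in 9 of 10 (old early-induced) and 10 of 10 genes (old late-induced), and blood markers in 1 of 3 and 3 of 3. Astrocyte markers were higher in 3 and 4 of 10, endothelial markers in 2 and 3 of 10, and mural cell markers in 2 and 2 of 7. Oligodendrocyte precursor markers were higher in 2 and lower in 2 of 6 in both comparisons, and neuron markers were higher in 1 of 10 in the first and lower in 3 of 10 in the second. The lymphocyte marker tested was higher in the first and not called in the second. Border macrophage markers were called in 0 of 8 genes, then 1 higher and 1 lower, and neutrophil markers in 1 and 0 of 3 tested. Choroid plexus markers varied widely within each group, with sums of 49.7 to 3116 CPM in young inputs. Their sums were 48.1 to 4150 CPM in old early-induced and 50.1 to 3517 CPM in old late-induced inputs. Monocyte markers summed to at most 3.04 CPM in any input. The part of all these cells in the changes of Tlr2, Cd14 and Tlr3 was not tested.

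No member differed between old late-induced and old early-induced inputs. Only 0.0265% of all genes (4 of 15106) were called by edgeR in this comparison, which bears on the age of induction at a fixed age, and 1731 genes had an unadjusted p under 0.05. At that unadjusted level 4 of the 9 members passed, Tlr2 (0.50 ± 0.22, adjusted p 0.38), Cd14 (0.44 ± 0.18, adjusted p 0.325), Tlr7 (0.42 ± 0.16, adjusted p 0.314) and Tlr13 (0.34 ± 0.15, adjusted p 0.373), each with the higher estimate in the late-induced group. DESeq2 called 52 genes, and gave the 9 members no adjusted p.

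Sex gave no call among the members either, with 0.172% of genes called (26 of 15106, 0.053% higher and 0.119% lower in males). Estimates were lower in males than in females for 8 of 9 members, and the share of all genes with a lower estimate was not counted. The median log2 fold change was -0.25 over the 9 members, -0.04 over the microglia list and 0.004 over all genes tested. The largest estimates were those of Tlr2 (-0.51 ± 0.19, edgeR adjusted p 0.346) and Tlr13 (-0.35 ± 0.12, edgeR adjusted p 0.318). Of the 9 members, 2 had an unadjusted edgeR p under 0.05 (1656 of all genes did). DESeq2 called 64 genes, none of them a member. Among the 7 TRAP libraries no member was called between sexes, with 0.061% of genes called, 0.0406% higher and 0.0203% lower in males, while DESeq2 called 364 genes there, among them Tlr7, Tlr9, Tlr13 and Cd14, all lower in males. The change with age was compared between sexes in the early-induced inputs. None of the 9 members and 0% of 14953 genes were called by edgeR, and 2301 genes and 1 member had an unadjusted p under 0.05. For this interaction DESeq2 called 21 genes but gave the 9 members no adjusted p, so it could not call them. The largest estimate was that of Cd14, -0.68 ± 0.33 (adjusted p 0.316). Its mean was 2.59 CPM in young and 4.74 CPM in old females, and 2.95 and 3.33 CPM in young and old males, so the estimated change was larger in females but the difference did not pass.

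The pathway around these receptors was followed with 7 lists of 83 further genes. These lists were chosen with earlier results of these data known, so their shares of called genes are descriptions only. In TRAP 60 of the 76 tested were called higher (78.9%, against 30.1% of all genes) and 6 lower (7.89%, against 28.3%), with a median log2 fold change of 1.15. The other receptors Tlr5, Tlr8 and Tlr12 were all higher, Tlr8 by 3.88 ± 0.44 and Tlr12 by 3.71 ± 0.18, and Tlr11 had 0 counts in every library. Partner and delivery proteins were higher in 10 of 11, led by Ly86 (4.37) and Cd180 (4.24), which form a complex related to Tlr4 and its partner. Lbp, which carries lipopolysaccharide to Cd14, was lower (-1.74). Adaptors other than Myd88 were higher in 4 of 5, from Pik3ap1 (4.58) and Ticam2 (3.93) down to Ticam1 (1.09 ± 0.15), the adaptor of Tlr3, which was named after its value was seen. Sarm1, a negative regulator, was lower (-0.24). Among kinases and ubiquitin ligases 13 of 20 were higher, with Btk (4.35) and Irak4 (2.53) first and Ube2n lower (-0.21), and the list's median was 0.29. Transcription factors were higher in 9 of 10, first Irf5 (4.42) and Irf8 (4.20). Inhibitors were higher in 11 of 15 with a median of 0.79, first Nfkbie (2.09), which holds NF-kB in the cytoplasm, and Usp18 (1.88), a brake on interferon signalling. Tollip, which restrains Irak kinases, was lower (-0.15). Transcriptional targets were higher in 10 of 12, with the chemokines Ccl4 (4.53) and Ccl3 (3.92) first, and Ptgs2 (-0.55) and Nfkbiz (-0.38) were lower.

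With age the same pathway lists had 20 of 69 genes higher (28.99%) and 6 lower (8.70%) in the old early-induced inputs, against 13.1% and 12.4% of all genes. In the old late-induced inputs 25 were higher (36.2%) and 5 lower (7.25%), against 17.6% and 16.8%. The 2 comparisons share the young libraries. Tlr12 was higher by 1.01 ± 0.21 and 1.26 ± 0.24 on the log2 scale in these comparisons (edgeR adjusted p 0.000665 and 0.000135), second to Tlr2 among the receptors tested. The endosomal transporter Slc15a3 (0.96 and 1.19) and Cd180 (0.90 and 1.20) were higher, as were Irf8 (0.90 and 1.17) and Irf7 (0.82 and 0.89), which control interferon genes. Ccl3 was higher by 1.95 ± 0.45 and 2.17 ± 0.49 and Cxcl10 by 1.75 ± 0.46 and 1.91 ± 0.49, but both had 0 to 16 counts in the young libraries. Btk (0.54 and 0.54) and Irak4 (0.49 and 0.65) were higher, while Traf3 (-0.25 and -0.36) and Sarm1 (-0.18 and -0.28) were lower in both. Among inhibitors the phosphatase Dusp1 was higher in both (0.88 and 0.90), Usp18 was among those with the largest change in the first comparison (1.02) and Socs3 in the second (0.91). Of the adaptors these were Pik3ap1 in the first (0.53) and Ticam2 (0.78) and Tirap (0.64) in the second. Slc15a4 (-0.15) and Irak2 (-0.24) were lower in the first and Chuk (-0.28) in the second. No gene of these lists was called between induction ages, between sexes or for the interaction of age and sex.

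Among the 29 inputs, after group and sex were taken out, pairs of members were at most moderately correlated. Over their 45 pairs the Pearson r of residual log2 CPM ranged from -0.44 to 0.43, with a median of 0.0049. Low counts weaken such correlations (0 to 22 per input library for Tlr1 and Tlr6), so these values do not show independent variation. For each member the genes most like it were sought among 13998 or 13999 expressed genes. Those of Tlr2 were Trf (r 0.78) and Ctsz (0.77), the first coding for the iron carrier transferrin and the second for a lysosomal protease. Tlr13 was most like Trim56 (0.74), Myd88 like 2310033P09Rik (0.78) and Mettl6 (0.76), Cd14 like 2810468N07Rik (0.67) and Fyb (0.67), and Tlr7 like Ilk (0.69). For the other members the highest r was between 0.61 and 0.68. These are the highest values of a long list over 29 libraries and are given as a description.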

How the data were processed

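PolyA RNA of hippocampus was sequenced. Estimated counts of each gene in 36 libraries stand in a single table that the authors deposited, with columns called raw per the file headers, and 77.2% of its nonzero values were not whole (tolerance 1e-06). The submitters' processing notes name the build mm10 and DESeq2. Aligner, counting tool and strand handling are not given in the sources used here. Fractional counts leave paralogs and overlapping genes uncertain.

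Counts were rounded and tested with edgeR 4.0.16 in R 4.3.3 (filterByExpr with a minimum count of 10, TMM scaling, glmQLFit, glmQLFTest). Adjusted p-values are Benjamini-Hochberg over all genes tested, with calls under 0.05. TRAP against input was fitted on 14 libraries with sex, the age, induction and sex contrasts in 1 fit of 29 inputs with group and sex, and the interaction on the 22 early-induced inputs. CPM used TMM scaling over all 36 libraries, and log2 CPM a prior count of 2. Exon lengths were unions of GENCODE vM21 exons. Starts of the members in the deposited table differed from that annotation by up to 1064 bases and ends by up to 1371, except for the end of Tlr4 (87488 bases). Motifs were chosen after the files were seen. The members and lists were chosen with earlier results of these data known. Of the pathway genes, the text names all members and per list the called genes with the largest change in a comparison, up to 2 higher and 2 lower. Tlr5, Tlr11 and Ticam1 were added after their values were seen. All 83 pathway and all but 3 marker genes were matched by symbol.

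TRAP and input were paired by the animal number in the labels. Residuals around the group mean correlated at 0.395 to 0.558 between TRAP and input of the same animal, for all 7, against a median of -0.0998 between different animals. Every pair of replicates differed by more than sampling noise (chi-square per degree of freedom 3.57 to 45.3 over 153 pairs). The labels give an animal number for each library, so replicates are animals. Alternatives covered scaling, filters, DESeq2 1.42.0, limma 3.58.1, covariates, females only and each library left out. The script was tested on simulated data.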

Additional observations from a re-analysis of the deposited data

Results flagged for a closer look

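Of 30 sets of values (10 genes in the 3 groups of up to 10 libraries), 5 held a library whose gap to its nearest neighbour was large for the range of its group, and chance alone gives about 1.5. Tlr1 had its highest young value in replicate 10 (1.38 CPM, next 0.759), and Tlr7 its lowest young value in replicate 2 (1.37 CPM, next 3.50). In old late-induced inputs Tlr7 was highest in replicate 3 (8.20 CPM, next 5.66) and Tlr9 in replicate 6 (3.75 CPM, next 1.92). In TRAP, Tlr4 was highest in replicate 3 (25.5 CPM, next 19.5). That library was also the highest in TRAP for Tlr1, Tlr2, Tlr3, Tlr7, Tlr9, Tlr13 and Myd88. Relative to the microglia list, its log2 value of Tlr4 was the median of the 7 TRAP libraries (-4.66). The Tlr1 and Tlr7 libraries change calls in the age comparisons. Without the Tlr9 library its log2 fold change in old late-induced against young inputs was 0.04 in place of 0.30, neither called, and the log2 fold change of Tlr4 in TRAP stayed between 3.54 and 3.71 with each library left out. Why these libraries stand apart was not tested.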

How the results depend on the processing

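All 10 members were called higher in TRAP under every alternative run, with log2 fold changes of 0.97 to 1.14 for Tlr3 and 2.10 to 2.38 for Myd88. With the animals as a replicate block all 10 were called and 9551 genes in all, against 8768, and the block changed no call of a member. Upper quartile scaling moved the median of all genes in TRAP from -0.02 to -0.18, and 33.6% of calls were then higher, against 51.6% (library size alone: -0.13 and 38.4%). In the old early-induced comparison 3 members were called, 3 to 4 with a library left out, 4 in limma voom, where Tlr1 passed, and 0 with the microglia covariate. In the old late-induced comparison 4 were called, 2 to 6 with a library left out (2 without old late-induced replicate 3 or 4 or young replicate 1, 6, 7 or 8, and 6 without young replicate 10), 2 with no filter on low counts, 3 in females only, 5 in limma voom, with a minimum count of 50, with upper quartile or library size scaling and without sex, and 0 with the covariate, where Tlr3 turned to -0.024 (edgeR adjusted p 0.976). Tlr13 passed in those 5 settings (edgeR adjusted p down to 0.0278 without sex), and Tlr7 did not with no filter (0.0594), in females only (0.069) or with the covariate. Without the filter, more genes were tested, among them Tlr6 (0.41 and 0.81, edgeR adjusted p 0.466 and 0.149). Tlr2 and Cd14 kept both calls under every alternative other than the covariate. Restricting to females gave 1198, 2787 and 182 calls over all genes in the old early-induced, old late-induced and induction comparisons, with fewer samples, and the covariate left 38, 8 and 1. Calls between induction ages were 4, 52 in DESeq2, 0 with only those groups fitted and 0 to 162 with a library left out. Sex calls were 26, 64 in DESeq2, 17 with the covariate and 12 in early-induced inputs, and interaction calls 0, 21 in DESeq2 and 0 to 453 with a library left out. No member was among the calls between induction ages, between sexes in inputs or for the interaction under any of these. The 162 calls came without old early-induced replicate 5 (98 without replicate 2), and the 453 without old early-induced replicate 6. For males against females in TRAP, described under other observations, 0 members were called, 1 with no filter, 4 in DESeq2 and 0 to 4 with a library left out. DESeq2 gave no adjusted p for members in the induction and interaction comparisons, so it could not call them there. Tlr1 and Tlr6 had 0 to 22 counts in inputs, which limits what can be seen of them there.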

Other observations

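The TRAP libraries of the 2 males held the lowest values for 9 of the 10 genes, a pattern seen in the values first and then fitted. Tlr7 held 48.1 and 50.1 CPM in the males and 84.1 to 128 CPM in the 5 females. Tlr2 held 36.6 and 38.4 CPM in the males against 49.7 to 134 CPM, Tlr13 44.2 and 44.4 CPM against 61.8 to 91.6 CPM, and Cd14 57.5 and 66.2 CPM against 77.2 to 141 CPM. Myd88 was the exception, at 32.98 and 33.4 CPM in males within 32.3 to 51.6 CPM in females. Of 14486 genes with a mean of at least 10 counts in TRAP, 13.2% had both males below all females and 7.79% had both above. Relative to the 12 microglia genes of the same library, both males were below all females for 7 of the 10 genes. The share of all genes with this pattern was counted for CPM only and not for this ratio.

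In edgeR's quasi-likelihood test of the 7 TRAP libraries no member was called (9 of 14763 genes or 0.061% were, and 1986 had an unadjusted p under 0.05). All 10 estimates were lower in males, 8 of them with an unadjusted p under 0.05. The largest were Tlr2 (-1.26 ± 0.35, adjusted p 0.215), Tlr7 (-0.98 ± 0.15, adjusted p 0.0736), Cd14 (-0.77 ± 0.22, adjusted p 0.218), Tlr6 (-0.72 ± 0.20, adjusted p 0.216) and Tlr13 (-0.71 ± 0.14, adjusted p 0.171). The 12 microglia genes had a median of -0.14 and all genes a median of -0.01. All 8 border macrophage markers had lower estimates in males (-1.53 to -0.19, median -0.57), while the medians of choroid plexus (1.66), mural (0.64) and endothelial markers (0.53) were higher, and none of these markers was called. Their part in the pattern was not tested. DESeq2 called 4 members, Tlr7 (adjusted p 7.7e-07), Tlr13 (0.00113), Cd14 (0.0211) and Tlr9 (0.0496), and 364 genes in all, and edgeR called 22 genes with no filter on low counts, Tlr7 among them (adjusted p 0.0202). Without TRAP replicate 7, a female, edgeR called 226 genes, among them Tlr2, Tlr7, Tlr13 and Cd14, and without replicate 3 it called Tlr7 (adjusted p 0.0293). The 2 males have the lowest animal and library numbers of the 7, and what these numbers stand for is not stated.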
